A study of Mus musculus with 14 samples.

Results

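Livers of Alb-Cre mice were compared with livers of wild-type mice after both had received the control plasmid, which encodes the green fluorescent protein EGFP. The 8 arrays were chosen by their titles, out of 14 arrays in the series, and comprised 4 of Alb-Cre liver with EGFP and 4 of wild-type liver with EGFP. Total RNA of whole liver was labelled and hybridised to Illumina mouse bead arrays, 1 array per sample, 1 week after hydrodynamic delivery, a rapid high-volume tail vein injection that carries plasmid DNA into hepatocytes. The other 6 arrays carried RNA from mice given an interleukin 13 (IL-13) plasmid. They entered the normalization, the filter on detection, the choice of each gene's probe and the estimate of its spread. Of the 9711 genes tested, 253 were detected on none of the 8 EGFP arrays by the probe used. The genotype label names Alb-Cre alone, and the series title adds a floxed Il4ra. The labels do not say whether the wild-type mice carried the floxed allele, nor how the genotypes were bred, and no age or sex is given. Whether every array stands for its own animal is not stated either, so p-values here reflect sample-to-sample spread, which may be technical. Every mouse in the comparison had been through hydrodynamic delivery, so an untreated liver is not part of it.

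Alb-Cre mice make Cre recombinase from the promoter of the albumin gene, hence in hepatocytes, where it removes DNA placed between loxP sites. Il4ra encodes the receptor chain that interleukin 4 and IL-13 share. With Il13ra1 it forms the receptor through which IL-13 reaches hepatocytes, and the kinases Jak1 and Tyk2 then phosphorylate the transcription factor Stat6. Set against each other without added cytokine, the genotypes show the baseline on which the IL-13 comparisons of the series rest.

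No gene passed the test for a difference between Alb-Cre and wild-type livers under EGFP. Of 9711 genes tested with limma, 0 (0%) had an adjusted p under 0.05, and the smallest adjusted p was 0.839. Without adjustment 364 genes (3.75%) had a p under 0.05, of which 175 (1.80%) were higher and 189 (1.95%) lower in Alb-Cre. In 272 genes (2.80%) the 4 Alb-Cre arrays did not overlap the 4 wild-type arrays, 133 (1.37%) being higher and 139 (1.43%) lower in Alb-Cre. All signed values below are Alb-Cre minus wild type on the log2 scale, where 1 unit is a 2-fold difference, and ± marks limma's standard error.

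The arrays were of similar quality. The number of probes detected ranged from 11554 to 12383 of 25697, the mean intensity was between 295 and 354, and arrays correlated with r between 0.988 and 0.993 within a genotype and between 0.989 and 0.995 across genotypes. Xist, which coats the silenced X chromosome of female cells, was seen on all 8 arrays at levels between 5.88 and 6.18. Replicates 1 and 2 of each genotype lay on 1 slide and replicates 3 and 4 on another. Alb-Cre RNA was always in the first pair of positions of a slide and wild-type RNA in the next pair, so position and genotype cannot be told apart. 1 array stood apart, that of Alb-Cre replicate 1. Its score on the first principal component, which held 23.9% of the variance, was 20.75, against -9.25 to 4.28 on the other 7 arrays. It was the highest or the lowest array for 31.3% of genes (22.04 to 28.49% for each of the others). Some of the differences that turned or moved without it are given both ways.

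Most differences were small. The median over all genes was -0.00052, and all but the outermost genes, at most 1 in 20 on either side, lay between -0.23 and 0.21. The 95% confidence interval of a gene's difference extended 0.26 to either side of its estimate in the median gene, and for 9564 of 9711 genes (98.5%) it lay within 1 log2 unit of 0. A difference of 0.5 or more either way was seen for 71 genes (0.731%). A difference of 1 or more was seen for 4 genes, all higher in Alb-Cre, and none of them passed the test. The same model, with the same spread per gene, called 2130 genes between the genotypes under IL-13.

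**Figure D1:**
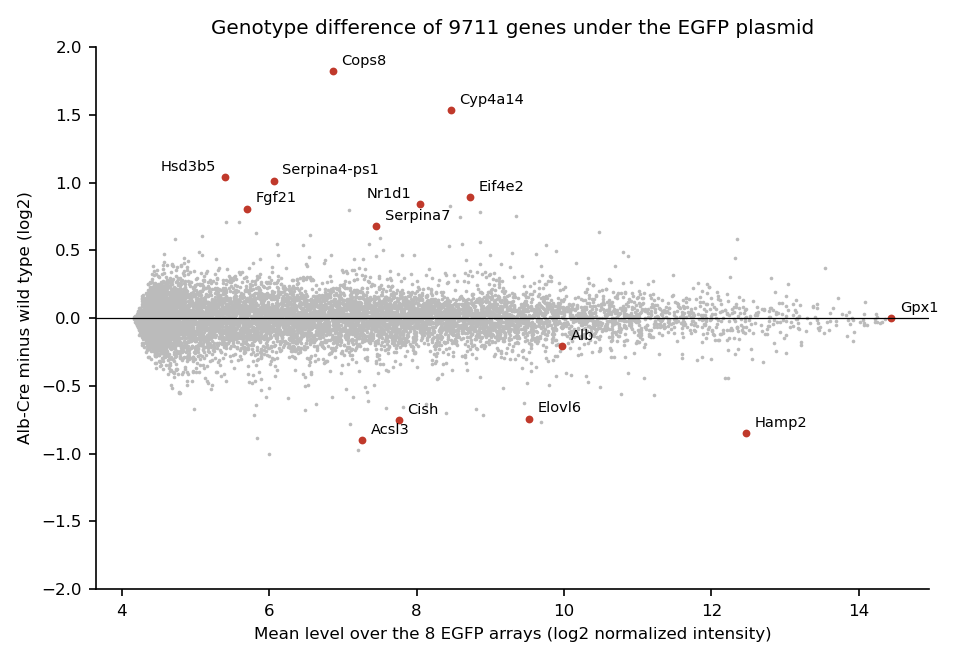
Each point is 1 of 9711 genes, with its mean level over the 8 EGFP arrays (log2 normalized intensity) on the horizontal axis and its Alb-Cre minus wild-type difference (log2) on the vertical axis. The named genes are marked in red. Only 4 genes reach a difference of 1, from Cops8 at 1.82 to Serpina4-ps1 at 1.01, and Gpx1, the brightest gene, lies at 0.

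The largest of these 4 differences belonged to Cops8, a subunit of the COP9 signalosome, which removes NEDD8 from ubiquitin ligases. Its level was 7.40, 8.25, 8.14 and 7.34 on the Alb-Cre arrays, against 4.31, 7.28, 5.11 and 7.14 on the wild-type arrays. The gap came from wild-type replicates 1 and 3, while replicates 2 and 4 lay just under the lowest Alb-Cre array. Cops8 was not detected on the array of wild-type replicate 1. The difference, which includes that undetected reading, was 1.82 ± 0.81 (limma adjusted p = 1). Cyp4a14, a fatty acid hydroxylase induced by PPAR alpha, had 9.72, 9.50, 9.43 and 8.28 in Alb-Cre, against 9.24, 7.71, 6.95 and 6.88 in wild type. Only 1 wild-type array reached the Alb-Cre range, and the difference was 1.54 ± 0.64 (limma adjusted p = 1). The Cyp4a genes are a family of close copies, and binding of its probe to other members was not tested.

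The remaining pair, Hsd3b5 and Serpina4-ps1, owed their difference to Alb-Cre replicate 1. Hsd3b5, a male-biased steroid reductase of the liver, had 8.55, 5.09, 5.65 and 4.39 in Alb-Cre, against 4.37, 5.04, 4.89 and 5.22 in wild type. Its difference was 1.04 ± 0.71 with the replicate and 0.16 without it. For Serpina4-ps1, a pseudogene of the serpin cluster, the values were 1.01 ± 0.55 with it and 0.38 without it. Neither passed.

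Among the 10 genes with the smallest p in each direction, none of which passed, most were dim. The lowest level detected was 4.50 to 4.60, depending on the array, and 16 of the 20 genes had a mean over the 8 arrays of 4.53 to 5.22. The brightest of those higher in Alb-Cre was Eif4e2, which encodes a cap-binding protein related to eIF4E. It had 9.10, 9.22, 9.35 and 9.04 in Alb-Cre, against 8.15, 8.12, 8.11 and 8.77 in wild type. The groups did not overlap, wild-type replicate 4 lay nearest to the Alb-Cre arrays, and the difference was 0.89 ± 0.20 (limma adjusted p = 0.839). Of its 3 kept probes only the brightest showed it, the others giving 0.13 and -0.03. Serpina7, the thyroxine-binding globulin that carries thyroid hormone in plasma, had 7.59, 8.09, 7.52 and 7.99 in Alb-Cre, against 6.88, 7.21, 7.17 and 7.21 in wild type. Again the groups did not overlap, with a difference of 0.68 ± 0.17 (limma adjusted p = 1).

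The 4 further genes higher in Alb-Cre, Mepe, Sf3a2, Synpo2l and Olfr192, were not detected on any wild-type array. There only a bound can be given, taken from the Alb-Cre mean against the lowest signal detected on each wild-type array. It holds for the means of these arrays and leaves out their sampling error. The mean level was at least 1.22-fold higher for Mepe, a matrix phosphoglycoprotein of bone, and at least 1.14-fold higher for the olfactory receptor gene Olfr192. For Sf3a2, a splicing factor subunit, and Synpo2l, an actin-associated protein of striated muscle, the same calculation gave 1.22 and 1.18. Both were detected on 3 of the 4 Alb-Cre arrays, so their Alb-Cre mean includes an undetected reading and these folds are not strict bounds. All 4 genes were picked by p from these same values, so the folds only describe these arrays. The other 4, Fchsd1, Vsig2, Slc41a3 and Ciao3, differed by 0.39 to 0.49, but second probes of Slc41a3 and Ciao3 differed by -0.15 and 0.14. The probe used was detected on 2 of the 4 wild-type arrays for Ciao3 and on 3 for Vsig2 and Slc41a3.

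On the lower side, Krt8, a keratin of simple epithelia and hepatocytes, was the brightest. It had 9.96, 10.66, 10.23 and 10.10 in Alb-Cre, against 10.50, 10.72, 11.06 and 10.71 in wild type. The ranges overlapped through Alb-Cre replicate 2, and the difference was -0.51 ± 0.14 (limma adjusted p = 1). Ocrl, an inositol polyphosphate phosphatase, had 5.84, 6.01, 5.91 and 5.71 in Alb-Cre and 6.06, 6.46, 6.38 and 6.27 in wild type. These groups did not overlap, although Alb-Cre replicate 2 and wild-type replicate 1 nearly met, and the difference was -0.43 ± 0.11. Ctsk, a collagen-degrading cathepsin, differed by -0.49 ± 0.14. The other 7, Slc23a3, Eif3j1, Pamr1, Fam110c, Plce1, Fnbp1 and Gal3st4, lay between 4.18 and 5.40 on every array. The 5 other than Fnbp1 and Gal3st4 differed by -0.56 to -0.43. Slc23a3 and Pamr1 were detected on 2 of the 4 Alb-Cre arrays, and Eif3j1, Fam110c and Plce1 on 1. All 5 were detected on all 4 wild-type arrays, so their differences rest partly on undetected readings. Gal3st4, a galactose sulfotransferase, was detected on no Alb-Cre array, and by the same kind of bound its mean there was at least 1.22-fold lower. The probe used for Fnbp1 was likewise detected on no Alb-Cre array, and its other probes differed by 0.03 and 0.145.

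**Figure D2:**
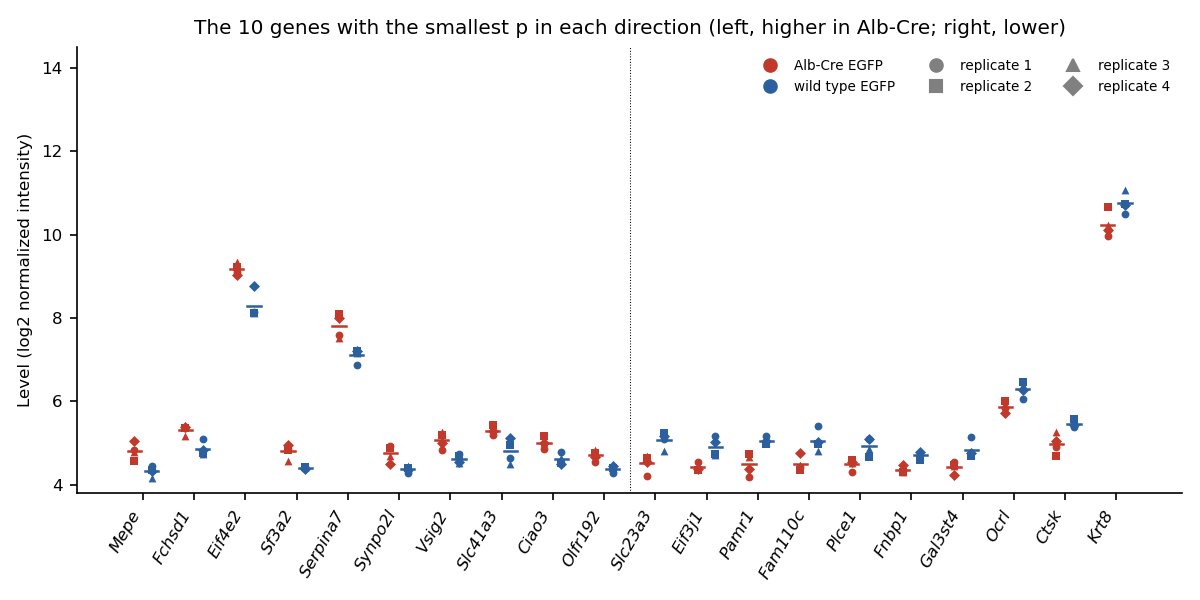
Levels (log2 normalized intensity) of the 20 genes with the smallest p on each array, Alb-Cre in red on the left and wild type in blue on the right of each gene, with a symbol per replicate and a bar at the group mean. Genes left of the dotted line are higher in Alb-Cre, those right of it lower. Most lie near 5, where probes are barely detected, and Eif4e2, Serpina7, Ocrl and Krt8 lie above 5.7.

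The floxed gene, Il4ra, is not analysed here, nor is Il2rg, which partners it in the type I receptor, so the arrays give no measure of the deletion. For the other parts of the receptor and its signalling chain the differences were small. Il13ra1, the chain that binds IL-13, had 7.54, 8.40, 8.18 and 8.06 in Alb-Cre, against 7.62, 8.42, 8.35 and 8.20 in wild type. The groups overlapped almost wholly, and both replicates numbered 1 were low, with a difference of -0.10 ± 0.20, which turned to 0.06 without Alb-Cre replicate 1. Stat6 differed by -0.02 ± 0.12, Jak1 by -0.03 ± 0.13 and Tyk2 by 0.01 ± 0.10, and Jak1 also turned to 0.06 without that array. None of these 4 passed, and their 95% intervals reached at most -0.52 or 0.31. Of the 18 genes tested in the IL-4 and IL-13 receptor list, 6 were higher, 12 lower and 0 (0%) passed, with a median of -0.03, or 0.01 without Alb-Cre replicate 1.

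Cish, a SOCS family inhibitor induced by STAT5, had the lowest value of this list. It measured 7.71, 6.98, 7.38 and 7.47 in Alb-Cre, against 8.76, 7.76, 7.94 and 8.11 in wild type. Every Alb-Cre array lay below every wild-type array, with Alb-Cre replicate 1 close to wild-type replicate 2, and the difference was -0.76 ± 0.22 (limma adjusted p = 1). Irs2, the insulin and IL-4 receptor substrate, averaged 0.55 lower in Alb-Cre but differed by -1.11 on slide 1 and by 0.02 on slide 2. Socs1 and Socs3, feedback inhibitors of JAK signalling, differed by -0.19 ± 0.11 and -0.07 ± 0.34. Without Alb-Cre replicate 1 they differed by -0.29 and 0.07. Socs1 was detected on only 1 of the 4 Alb-Cre and 2 of the 4 wild-type arrays, so its values lay near the limit of detection. Of 16 type 2 response genes tested, 8 were higher, 8 lower and none passed, with a median of -0.0008, and 9 of the 16 were undetected on all 8 arrays. Among these 9 was Retnla, a resistin-like secreted protein typical of type 2 responses, at 4.25 to 4.32 in Alb-Cre and 4.23 to 4.30 in wild type.

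Genes beside the loxP-flanked locus and beside the source of the Cre promoter were examined next. The 26 tested genes among 40 neighbours of Il4ra had a median of 0.01, with 13 higher and 13 lower, and no neighbour had an unadjusted p under 0.05. The 13 tested neighbours of Alb had a median of -0.05. Alb itself, the albumin gene, had 9.82, 9.96, 9.64 and 10.08 in Alb-Cre, against 9.99, 9.59, 10.36 and 10.38 in wild type. The ranges overlapped, and the difference was -0.21 ± 0.19 (limma adjusted p = 1). It was 0.10 on slide 1 and -0.51 on slide 2. Afm, the albumin family gene for afamin, differed by 0.00 ± 0.13, and the probe for Afp did not pass the detection filter. The hepatocyte transcription factors Hnf4a, Foxa1, Ppara and Nr1h4 differed by -0.04 (Hnf4a) to 0.02 (Nr1h4), and Cebpa by 0.22 ± 0.24. Foxa3 differed by 0.20 ± 0.18, Nr1h3 by 0.14 ± 0.11 and Nr5a2 by -0.16 ± 0.13. Of 17 genes tested in the list of the albumin cluster and these factors, 9 were higher and 8 lower. They ranged from -0.25 to 0.22, and 0 (0%) passed.

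The order of brightness in these control livers was led by secreted plasma proteins and apolipoproteins. Brightness depends on the probe as well as on the transcript, so the order ranks signals and not transcript amounts. The 20 brightest genes were Gpx1, Apoc3, Trf, Hpx, Serpina1b, Ahsg, Apoa2, Fga, Kng1, Cyp2e1, Apoa1, Adh1, Ambp, Serpina1d, Apoc1, Ttr, Gnmt, Rplp1, Mt1 and Dbi. They include carriers of iron and haem (Trf, Hpx), high-density and triglyceride-rich lipoprotein proteins (Apoa1, Apoa2, Apoc1, Apoc3), protease inhibitors (Serpina1b, Serpina1d) and a fibrinogen chain (Fga). Gpx1, a selenium-dependent peroxidase, was first, at 14.38 to 14.47 in both genotypes. Quantile normalization gives every array the same set of values, which compresses differences among the brightest probes.

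Between the genotypes these 20 genes differed by -0.17 to 0.12, and all ranges overlapped. The outer values belonged to Mt1, a metallothionein, at -0.17 ± 0.24, and to Apoa1, the main protein of high-density lipoprotein, at 0.12 ± 0.08. Mt1 stood at 12.81 on the array of Alb-Cre replicate 1 and at 13.81 to 14.31 elsewhere, and without that array its difference turned to 0.18. Of the 19 steps from one gene to the next in this order, 17 were smaller than the larger of both genes' SDs over the 8 arrays. The exceptions were the steps from Gpx1 to Apoc3 (0.08) and from Kng1 to Cyp2e1 (0.10). Alb ranked 915 of 9711, on 1 probe. Further down the order, Cps1, the first enzyme of the urea cycle, ranked 50, the cytochrome P450 gene Cyp3a11 72, the hepcidin gene Hamp 109 and Cyp7a1, the hydroxylase that begins the classical route to bile acids, 179. Cyp7a1 had 11.74, 12.08, 12.19 and 12.49 in Alb-Cre, against 12.57, 11.81, 12.33 and 12.44 in wild type. The arrays overlapped fully, with a difference of -0.16 ± 0.43, or -0.04 without Alb-Cre replicate 1. Of 31 bile acid synthesis and transport genes, 18 were higher and 13 lower, with a median of 0.03. None passed, and 2 had an unadjusted p under 0.05, both lower in Alb-Cre (background 1.95% lower). These were Baat at -0.32 ± 0.12, with overlapping groups, and Slc27a5 at -0.30 ± 0.14, without overlap.

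Cholesterol synthesis had the median farthest below 0 of the 23 pathway lists. Cells make cholesterol from acetyl-CoA through mevalonate and squalene, and SREBP-2, the product of Srebf2, drives the enzymes as a group when sterols are low. Of 18 members tested, 17 were lower in Alb-Cre and 1 higher, 0 (0%) passed, and 1 had an unadjusted p under 0.05 (background 1.95% lower). The list's median was -0.25, against -0.00052 over all genes. It was -0.27 on slide 1, -0.32 on slide 2, and -0.35 to -0.25 when each array was left out in turn. Without Alb-Cre replicate 1 it was -0.25, again with 17 lower and 1 higher. The list was singled out after its values were seen, so the count is a description of these arrays. The one member higher in Alb-Cre was Srebf2 itself, at 0.09 ± 0.21.

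Mvd, which decarboxylates mevalonate diphosphate, had 7.22, 6.34, 6.996 and 6.80 in Alb-Cre, against 7.73, 7.31, 7.76 and 6.90 in wild type. A set of 3 wild-type arrays lay above all Alb-Cre arrays, and the difference was -0.59 ± 0.25 (limma adjusted p = 1). Msmo1, the methylsterol oxidase that acts on C4 methyl sterols, had 7.15, 7.43, 7.41 and 6.98 in Alb-Cre, against 8.27, 7.75, 7.99 and 7.65 in wild type. Its groups did not overlap, nor did those of Pmvk, Ebp and Dhcr7, which makes 4 of 18 against 1.43% of all genes that were lower without overlap. Dhcr7, the last enzyme of one branch of the pathway, had 7.81, 8.09, 8.31 and 8.03 in Alb-Cre, against 8.52, 8.45, 8.61 and 8.45 in wild type. Its difference was -0.45 ± 0.26. Hmgcs1, the synthase that supplies the pathway, differed by -0.26 ± 0.35, and its ranges overlapped. None of these members passed (limma adjusted p = 1 for each).

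The stretch before the transcription start is shown for 3 of these enzymes, as members that lay on the same side of 0. The sequences are the 250 bases upstream of the RefSeq start in mouse build GRCm38.p6, read 5′ to 3′ on the gene's strand, and capitals mark CCAAT or its reverse complement ATTGG and, in Hmgcs1, the sterol element letters TCACNCCAC. The Hmgcs1 stretch is chr13:119690101-119690350 (plus strand), that of Msmo1 chr8:64733579-64733828 (minus strand) and that of Mvd chr8:122443423-122443672 (minus strand).
Hmgcs1: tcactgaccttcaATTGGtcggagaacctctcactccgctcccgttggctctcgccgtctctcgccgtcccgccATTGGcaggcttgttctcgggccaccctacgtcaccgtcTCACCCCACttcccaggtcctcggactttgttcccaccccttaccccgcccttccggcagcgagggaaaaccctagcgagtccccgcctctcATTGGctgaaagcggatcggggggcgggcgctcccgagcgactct
Msmo1: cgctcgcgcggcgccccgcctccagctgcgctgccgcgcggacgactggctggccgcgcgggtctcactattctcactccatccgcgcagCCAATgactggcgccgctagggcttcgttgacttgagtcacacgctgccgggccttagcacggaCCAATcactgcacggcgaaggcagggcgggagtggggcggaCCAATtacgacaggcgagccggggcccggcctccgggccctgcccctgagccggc
Mvd: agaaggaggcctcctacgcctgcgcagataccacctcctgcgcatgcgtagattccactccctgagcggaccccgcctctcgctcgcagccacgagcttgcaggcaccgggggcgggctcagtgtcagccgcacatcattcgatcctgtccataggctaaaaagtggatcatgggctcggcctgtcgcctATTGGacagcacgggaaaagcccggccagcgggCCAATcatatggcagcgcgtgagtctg
Both motifs were searched on both strands in the 250 bases, and a gene counted if any of its listed starts held the motif. CCAAT, the letters bound by NF-Y, was found for 15 of the 15 members with a promoter in the table, against 40.9% of 7878 tested genes and 37.5% of 27025 genes in all. TCACNCCAC was found for 1 of 15, Hmgcs1, against 1.28% of tested genes. The motifs share no letters at any of these places, and a match describes the letters only.

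**Figure D3:**
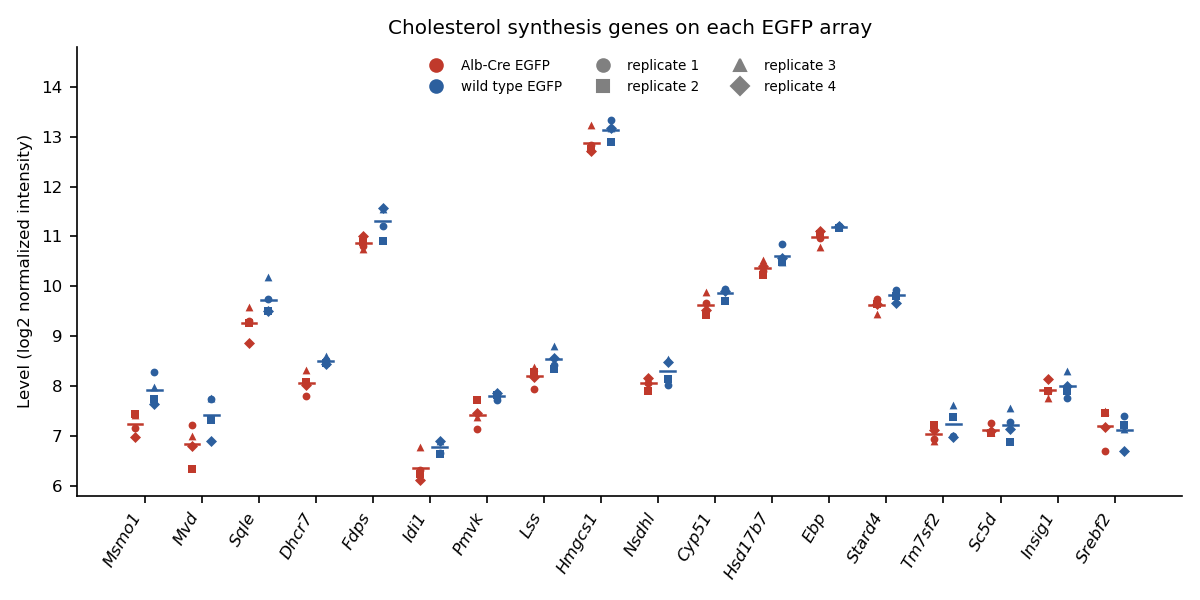
Levels (log2 normalized intensity) of the 18 cholesterol synthesis genes tested, Alb-Cre in red on the left and wild type in blue on the right of each gene, with a symbol per replicate and a bar at the group mean. Genes run from the lowest difference, Msmo1 at -0.67, to the highest, Srebf2 at 0.09. The groups are apart in Msmo1, Dhcr7, Pmvk and Ebp and overlap in the other 14.

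Fatty acid genes held some of the larger single differences without a common direction. Of 25 synthesis genes, 9 were higher and 16 lower, with a median of -0.06, or -0.12 without Alb-Cre replicate 1. Acsl3, which activates long-chain fatty acids at the endoplasmic reticulum and lipid droplets, had 6.99, 6.55, 6.94 and 6.77 in Alb-Cre, against 7.59, 7.82, 8.04 and 7.41 in wild type. The groups did not overlap, and the difference was -0.90 ± 0.26 (limma adjusted p = 1), -0.93 on slide 1 and -0.87 on slide 2. A dimmer second probe of Acsl3 differed by -0.19. Elovl6, the elongase of palmitate, differed by -0.74 ± 0.31, but by -0.04 on slide 1 and -1.44 on slide 2. Wild-type replicate 3 held its highest value, 11.08, and without it the difference was -0.35. Scd1, Srebf1 and Thrsp, the desaturase, regulator and lipogenic factor, differed by -0.31 ± 0.51, -0.07 ± 0.18 and -0.44 ± 0.27. Without wild-type replicate 3 Scd1 differed by -0.14, and Srebf1 turned to 0.08.

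Of 35 fatty acid oxidation and PPAR alpha target genes, 22 were higher and 13 lower, with a median of 0.05. Fgf21, a fasting hormone secreted by the liver, had 6.52, 5.76, 6.13 and 5.99 in Alb-Cre, against 5.11, 5.70, 5.12 and 5.24 in wild type. The groups did not overlap, with wild-type replicate 2 close under Alb-Cre replicate 2, and the difference was 0.81 ± 0.31 (limma adjusted p = 1). Bdh1, which makes the ketone body hydroxybutyrate, had 10.98, 10.73, 10.97 and 10.86 in Alb-Cre and 10.69, 10.46, 10.40 and 10.45 in wild type, again without overlap. Cpt1a, the gate of mitochondrial import, differed by 0.12 ± 0.13. Ppp1r3c, a glycogen-targeting subunit of protein phosphatase 1, had a difference of 0.78 ± 0.28, of 1.21 on slide 1 and 0.36 on slide 2, and of 0.49 without Alb-Cre replicate 1. None passed.

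Of 25 unfolded protein and integrated stress response genes, 20 were higher and 5 lower in Alb-Cre, with 0 (0%) past the test, 3 with an unadjusted p under 0.05 (background 1.80% higher) and a median of 0.12. Without Alb-Cre replicate 1, 17 were higher and 8 lower, with a median of 0.11. Atf4, the transcription factor of the integrated stress response, had 5.38, 5.28, 5.31 and 5.25 in Alb-Cre, against 4.62, 5.12, 5.14 and 5.03 in wild type. The groups did not overlap, and the difference was 0.33 ± 0.13 (limma adjusted p = 1). Trib3, a pseudokinase and target of this factor, averaged higher in Alb-Cre by 0.40 ± 0.14. Atf5, a related transcription factor and also a target, did so by 0.50 ± 0.20. The groups overlapped for both genes. Hspa5, the main chaperone of the endoplasmic reticulum, differed by 0.17. On the authors' deposited scale the list's median was 0.03.

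Lists of dividing cells and of the matrix lay somewhat below 0. Of 29 cell cycle genes 7 were higher and 22 lower, with a median of -0.13. That median was 0.02 on slide 1, -0.19 on slide 2 and -0.04 on the authors' deposited scale. Mcm3 and Mcm6, subunits of the replicative helicase, differed by -0.28 ± 0.10 and -0.41 ± 0.18. Foxm1, a regulator of mitotic genes, gave no direction, since 1 of its probes differed by 0.27 and the other by -0.28. Of 31 matrix genes 7 were higher and 24 lower, with a median of -0.12. That median was -0.001 on slide 1, -0.23 on slide 2 and -0.08 on the deposited scale. Col1a1, a chain of collagen I, averaged 5.58 ± 0.50 in Alb-Cre and 6.04 ± 0.18 in wild type (SD, n = 4 each), and its arrays overlapped. Both medians were lower on slide 2 than on slide 1, and none of the members passed. Of 26 heat shock and immediate early genes 6 were higher and 20 lower, with a median of -0.12. Among them were Fos, an immediate early transcription factor, at -0.52 ± 0.15 and Junb, its partner, at 0.46 ± 0.19, or 0.29 without wild-type replicate 3. Fos and Mcm3 were each detected on 1 of the 4 Alb-Cre arrays and on all 4 wild-type arrays.

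Clock genes, which follow the hour of the day, varied between arrays. Nr1d1, the repressor REV-ERB alpha, had 9.41, 7.59, 7.99 and 8.87 in Alb-Cre, against 7.83, 7.85, 7.23 and 7.60 in wild type. Alb-Cre replicates 1 and 4 were high, and the difference was 0.84 ± 0.31, or 0.52 without replicate 1. Dbp, an output gene of the clock, was also highest on those arrays, at 12.46 and 12.47, against 11.45 to 12.18 on the other 6. Arntl and Per2 differed by -0.01 ± 0.19 and -0.28 ± 0.23. The 19 clock genes had a median of -0.05, and the hour of collection is not in the labels, so its part in these values was not tested.

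**Figure D4:**
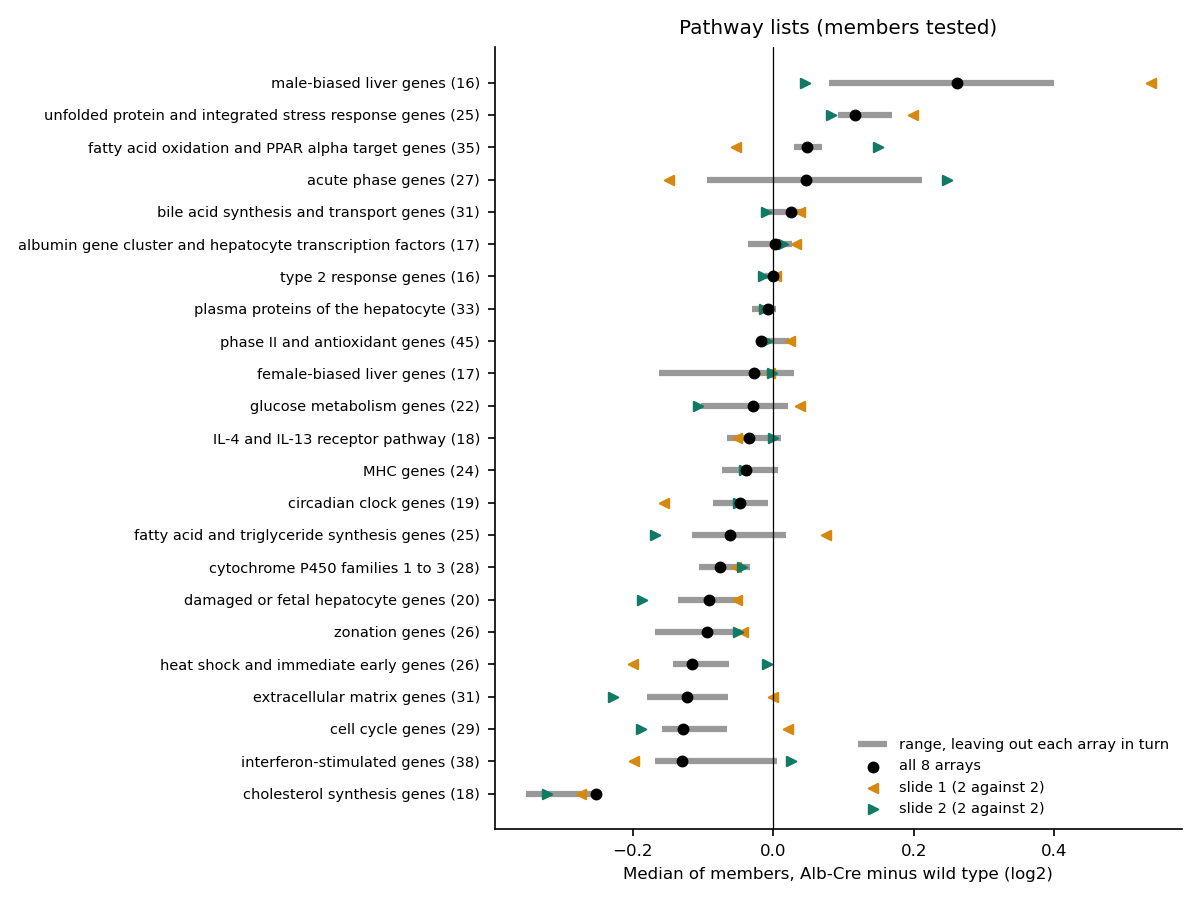
Median Alb-Cre minus wild-type difference (log2) of the members of each pathway list, with the number of members tested in brackets. Black points use all 8 arrays, grey bars span the medians obtained when each array is left out, and the orange and green triangles use the 2 against 2 arrays of slide 1 and of slide 2. Cholesterol synthesis lies at -0.25 with both slides below 0, while the male-biased, acute phase and interferon lists move with single arrays.

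The medians of the male-biased, interferon and acute phase lists moved with 1 array, that of Alb-Cre replicate 1. Male-biased liver genes, which respond to the pulsed growth hormone of males, had 15 of 16 members higher in Alb-Cre and a median of 0.26, but 0.54 on slide 1 and 0.05 on slide 2. Without Alb-Cre replicate 1 the median was 0.08, with 14 higher and 2 lower. On that array Cyp2d9 stood at 12.42 (10.28 to 10.92 on the other Alb-Cre arrays, 9.66 to 11.06 in wild type) and Cyp4a12a at 6.93 (4.36 to 5.40 in Alb-Cre, 4.46 to 5.16 in wild type). Both are male-biased cytochrome P450 genes. A pair of female-biased genes was low there. Cyp17a1, a steroid hydroxylase, stood at 6.61 (7.68 to 9.04 on the other Alb-Cre arrays, 8.24 to 9.15 in wild type), and Slc22a26, an organic anion transporter, at 6.42 (8.13 to 8.56 in Alb-Cre, 8.08 to 8.96 in wild type). Xist on the same array was 6.07, within the range of the other 7.

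Acute phase genes, which the liver secretes in inflammation, had a median of 0.05, with -0.15 on slide 1, 0.25 on slide 2 and 0.21 without Alb-Cre replicate 1. Lcn2, an iron-siderophore binding protein, was the most variable of the genes detected on all 8 arrays, with 6.37, 11.44, 10.71 and 9.11 in Alb-Cre, against 9.20, 11.33, 9.36 and 8.72 in wild type. Alb-Cre replicate 1 was far below the rest, and replicate 2 of each genotype was at the top. The same pair of arrays was highest for Orm2, an acute phase glycoprotein (11.36 in Alb-Cre, 11.57 in wild type), for Saa1, serum amyloid A (6.14 and 6.38), and for Nnmt, nicotinamide N-methyltransferase (11.01 and 11.39). Nnmt was 6.79 on the array of Alb-Cre replicate 1 and 9.38 or higher on all others. The difference of Lcn2 was -0.25 ± 0.84 with that array and 0.77 without it. Of 38 interferon-stimulated genes 27 were lower, with a median of -0.13, but without this array 18 were lower and the median was 0.005.

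The 12 genes with the largest residual SD among those detected on all 8 arrays were Lcn2 (1.79), Nnmt (1.42), Gadd45g (1.31), Orm2 (1.19), A1bg (1.18), Serpina4-ps1 (1.16), Xlr4a (1.09), Mt2 (1.06), Csad (0.996), Cyp2b10 (0.92), Angptl8 (0.92) and Cyp4a14 (0.90). The median gene had a residual SD of 0.16. Of the 100 most variable genes, Alb-Cre replicate 1 was the highest array for 20 and the lowest for 44. Csad, which makes the taurine precursor hypotaurine, was 10.70 there, 7.78 to 8.96 on the other Alb-Cre arrays and 7.30 to 8.32 in wild type. Gadd45g, a growth arrest gene, was highest on the array of wild-type replicate 4, at 11.18. Cyp2b10, a target of the nuclear receptor CAR, was 7.73 on the array of Alb-Cre replicate 1 and 9.09 to 10.63 elsewhere. None of the 12 passed the test, and their intervals were wide, that of Lcn2 reaching from -2.02 to 1.53.

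**Figure D5:**
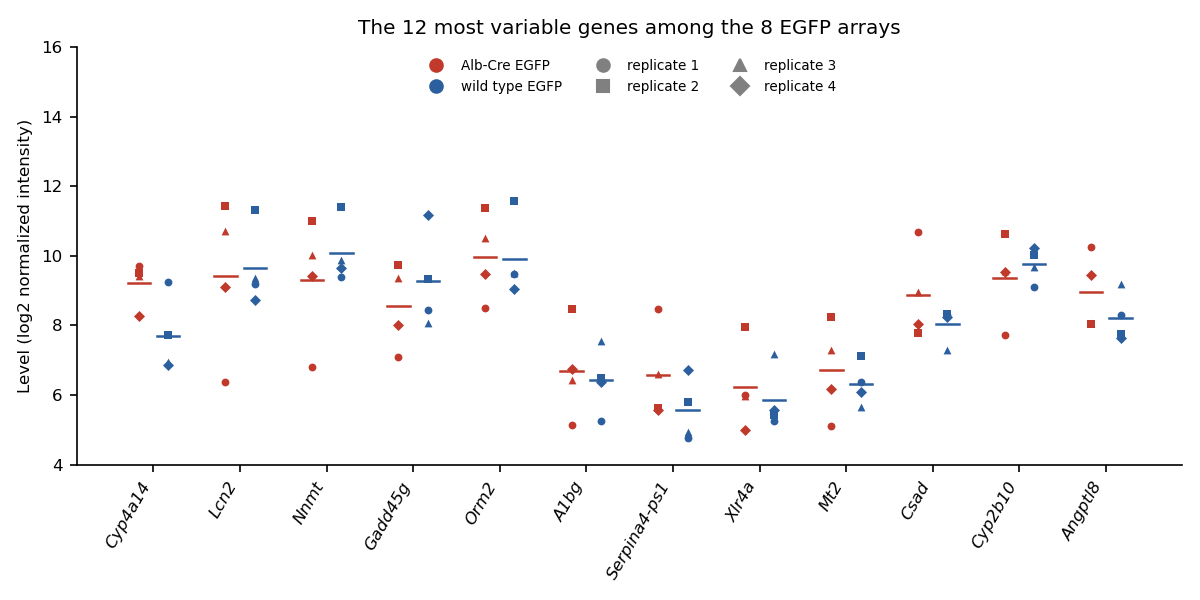
Levels (log2 normalized intensity) of the 12 most variable genes on each array, Alb-Cre in red on the left and wild type in blue on the right of each gene, with a symbol per replicate and a bar at the group mean. Alb-Cre replicate 1 (red circles) is the lowest point for Lcn2, Nnmt, Gadd45g, Orm2, A1bg, Mt2 and Cyp2b10 and the highest for Cyp4a14, Serpina4-ps1, Csad and Angptl8.

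Markers of liver cell types showed no difference that passed. In whole liver, fewer cells of a type and less RNA per cell cannot be told apart. Of 110 markers tested in 16 lists, 0 (0%) passed and 8 had an unadjusted p under 0.05 (background 3.75%). All 11 hepatocyte markers were detected on every array, and their mean level was 11.54 to 11.84 on the Alb-Cre arrays and 11.67 to 11.91 on the wild-type arrays. Kupffer cell markers averaged 7.41 to 7.63 in Alb-Cre and 7.21 to 7.58 in wild type, and endothelial markers 7.07 to 7.15 and 7.05 to 7.12. The ranges of the genotypes overlapped in each of these lists.

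Among single markers, Pdgfrb, a receptor of stellate cells and pericytes, had 4.74, 4.57, 4.83 and 4.46 in Alb-Cre, against 5.20, 4.85, 5.39 and 5.01 in wild type. The groups did not overlap, and the difference was -0.46 ± 0.13 (limma adjusted p = 1), while the 14 stellate and myofibroblast markers had a median of 0.04, or -0.002 without Alb-Cre replicate 1. Cela1, a pancreatic elastase, had 7.89, 8.24, 7.90 and 8.09 in Alb-Cre and 7.29, 7.83, 7.56 and 7.58 in wild type, without overlap. The other 3 pancreatic markers tested differed by 0.003 to 0.03, and Ctrb1 among them was detected on no array. Upk3b, a mesothelial marker, had 5.67, 5.54, 5.75 and 6.14 in Alb-Cre and 6.10, 5.06, 4.73 and 4.37 in wild type. Its difference was 0.03 on slide 1 and 1.395 on slide 2, and the other 2 mesothelial markers differed by -0.18 and -0.02. Muc1 and Cldn7, of bile duct cells, differed by -0.38 ± 0.14 and -0.18 ± 0.09, near the limit of detection, and the other probes of Muc1 differed by 0.08 and 0.07. For eosinophils, mast cells, B cells, skeletal muscle and mesothelium, no marker tested was detected on all 8 arrays.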

How the data were processed

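Bead arrays of liver RNA from 14 samples were used, 4 Alb-Cre EGFP and 4 wild-type EGFP arrays being compared. The authors deposited non-normalized probe intensity and a detection p-value per probe, which per the submitters' processing notes came from GenomeStudio 2011.1, and the deposited log2 table holds the same intensities scaled by 1 factor per array so that each array's median is 500. Intensities were background corrected from the detection p-values, quantile normalized and set to log2 with neqc (limma 3.58.1, R 4.3.3, offset 16). Probes with a detection p under 0.05 on at least 3 of 14 arrays were kept (14109 of 25697). A gene was represented by its kept probe with the highest mean, which left 9711 genes. Group means were fitted to all 14 arrays with lmFit and eBayes, and p-values were adjusted by Benjamini-Hochberg over all genes. Genes named are the 10 of smallest p in each direction, list members with the smallest p or a central role, the 20 brightest and the 12 most variable of those detected on all 8 arrays. Other genes named, such as Hsd3b5, Cyp2d9, Cyp17a1, Hspa5 and Hnf4a, were chosen after their values were seen. Genes and lists were chosen with earlier results of these data known. The number of arrays limits the precision. Alternatives covered the arrays in the fit, slide, normalization, background, filter, probe choice, weights and single arrays.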

Additional observations from a re-analysis of the deposited data

Results flagged for a closer look

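In 22 of 372 groups of 4 arrays (5.91%), 1 array lay far from the other 3 of its genotype, measured against the group's own range. The gap itself can be small, as for Cyp2e1 in wild type, at 14.12 against 14.15 on the other 3 arrays. Chance alone gives about 1 group in 20 where values are independent and untied. Some values here tie after quantile normalization, and many genes were chosen by p or spread, so that rate is only a guide. All values are log2 normalized levels. Alb-Cre replicate 1 stood apart for Aox3, an aldehyde oxidase, at 12.11, for Gnmt, the glycine methyltransferase, at 13.59, for the chemokine gene Ccl11 at 4.73 and for Eif3j1 at 4.54. Alb-Cre replicate 2 did so for Apoa1 at 14.05 and for the fatty acid synthase gene Fasn at 5.52, and Alb-Cre replicate 3 for Atf5 at 9.82 and Stat6 at 5.81. Gpx1 was 14.38 in replicate 4 of Alb-Cre and 14.38 in replicate 4 of wild type, below the 14.47 of the other 3 arrays of each genotype. Wild-type replicate 1 stood apart for Serpina7 at 6.88, Gal3st4 at 5.15 and Cyp2e1 at 14.12. Wild-type replicate 2 did so for Cyp2b13 at 11.92, Gp9 at 4.94 and D430042O09Rik at 4.85, and wild-type replicate 3 for Serpina1b at 14.20, Xlr4a at 7.17 and Csad at 7.30. Wild-type replicate 4 stood apart for Eif4e2 at 8.77, Cd79b at 4.34 and Arntl at 4.53.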

How the results depend on the processing

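The count of genes past an adjusted p of 0.05 was 0 in 22 of 24 alternatives, the 8 that leave out 1 array each included (0 to 0). Slide 1 alone called 1 gene, Prss8 (-1.89, limma adjusted p = 0.0419, and 0.46 on slide 2). Slide 2 alone called 1 gene, Chrna4 (-1.53, limma adjusted p = 0.0277, and 0.20 on slide 1). Unadjusted p under 0.05 was found for 364 genes, for 281 to 440 with an array left out, for 556 on slide 2, for 697 of 16593 genes without the filter and for 597 with the replicate block over the 8 arrays, where 0 genes were called (smallest adjusted p 0.328). Same-numbered arrays of both genotypes correlated in their deviations by 0.12, 0.28, -0.001 and 0.04, and differently numbered ones by -0.20 to 0.11. Whether the numbers pair the arrays was not tested. Of 4246 values of named genes under alternatives 170 changed sign, and 0 passed the test. Of 573 list medians 61 changed sign and 27 moved by more than their SD over arrays. Levels near the detection limit and 4 arrays a group bound what could be seen.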

Other observations

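In the gene order of mouse build GRCm38.p6 (RefSeq), 1 stretch of 50 consecutive tested genes on chromosome 1 held 7 with an unadjusted p under 0.05, namely Pde6d, Eif4e2, Cops8, Hdac4, Gpc1, Thap4 and Ing5. The stretch was noticed after the values were seen. Over all 8724 such windows the median was 2 and the maximum 7, which was reached on 2 chromosomes. Of the 71 genes with a difference of 0.5 or more, 8 lay on chromosome 1, which holds 5.18% of the genes tested. Over all 14 arrays Cops8 fell into separate ranges, 4.22 to 5.11 on 4 arrays, 7.05 to 7.40 on 7 arrays and 8.14 to 8.25 on 3 arrays. The lowest range held 1 Alb-Cre and 1 wild-type array with IL-13 and 2 wild-type arrays with EGFP. Within it Cops8 was undetected on the Alb-Cre array with IL-13 and on that of wild-type EGFP replicate 1. The highest range held 2 Alb-Cre arrays with EGFP and 1 wild-type array with IL-13. These 3 arrays also had the 3 lowest levels of Thap4, at 4.65, 5.10 and 4.70, against 5.83 to 6.58 on the other 11. The cause was not tested.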
